A study of Ginkgo biloba with 16 samples.

Results

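*Gb_29026*, *Gb_29027* and *Gb_19428* are the 3 genes for histone H3 that the study of aging *Ginkgo biloba* cambium names among its cell division genes. They were taken by name, as 3 of the 43,911 gene entries with deposited levels. The study had itself picked them as differing between these same trees, so their direction against young trees is not independent evidence. RNA was sequenced from cambium, the layer of dividing cells between wood and bark, in 9 female trees without treatment, 1 library per tree. The groups were VC20 (trees of 15, 20 and 22 years), VC200 (193, 211 and 236 years) and VC600 (538, 553 and 667 years), and the letters A, B and C name trees in order of age within a group and pair no trees between groups. Per the study's methods all sequenced cambium came from 1 site, Pizhou. Sampling was in late May of more than 1 year, and the year of each tree is not given in the labels, so its part in the results was not tested.

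Histone H3, with H4, H2A and H2B, forms the protein core around which DNA is wound. Plants make a replicative form of H3 mainly in S phase, and the chaperones ASF1 and CAF-1 place it on newly copied DNA. A variant, H3.3, replaces H3 outside replication. Transcripts of replicative histones are therefore abundant in dividing tissue such as cambium. The study's annotation places the 3 genes closest to wheat histone H3.2.

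Levels were given by the authors as FPKM, fragment counts scaled for gene length and library depth, which allows genes of different length to be compared. The implied depth was 15,732,412 to 18,811,771 fragments per library. The library VC200C stood apart from the rest, with Spearman correlations of 0.830 to 0.887 with the other 8 libraries, whose lowest correlation among themselves was 0.911. The main values in VC200 vs VC20 are therefore also given without it. Across all 21,924 tested genes the median log2 difference was -0.12 in VC200 vs VC20, -0.015 in VC600 vs VC20 and 0.11 in VC600 vs VC200, and the values below are to be read against these shifts.

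*Gb_29026* and *Gb_29027* are neighbours on scaffold5172, which holds 5 entries in the gene table. Both lie on the minus strand, *Gb_29026* at 66,633 to 67,250 and *Gb_29027* at 129,838 to 184,600, with 62,587 bases and 0 other entries between them. Their listed lengths are nearly equal, 618 and 617 bases. The models differ in layout, since *Gb_29026* fills 618 bases of the scaffold without interruption whereas the 617 bases of *Gb_29027* are spread over 54,763. *Gb_19428* is on scaffold2998, minus strand, at 1,608,130 to 1,608,540, an uninterrupted model of 411 bases or 137 codons. Coordinates are those of the authors' files. The paper's methods name a GigaDB reference genome of *G. biloba* for alignment, without a build or version. Copies of histone H3 can be nearly identical, and the sources do not say how fragments matching several copies were counted, so the split between the 3 genes is uncertain.

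*Gb_29026* had the highest group mean of the 3 genes in every age group. Its levels were 22.2, 41.0 and 65.3 FPKM in the young trees, 15.4, 16.5 and 5.69 FPKM in VC200, and 18.0, 7.51 and 34.0 FPKM in VC600. Every VC200 tree was below every VC20 tree, whereas VC600C exceeded VC20A. The means were 42.8 ± 21.6 (SD, n = 3), 12.5 ± 5.96 and 19.8 ± 13.3 FPKM, so VC200 averaged 70.7% and VC600 53.7% less than VC20.

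*Gb_29027* was the steadiest of the 3 in young trees. Its levels were 25.1, 29.2 and 31.7 FPKM in VC20, then 10.2, 9.81 and 3.60 FPKM in VC200, and 9.49, 7.62 and 20.2 FPKM in VC600. All 6 old trees were below all 3 young trees, the only one of the 3 genes for which this held. The means were 28.6 ± 3.35, 7.86 ± 3.69 and 12.4 ± 6.78 FPKM (SD, n = 3), or 72.6% and 56.6% less in VC200 and VC600 than in VC20. The coefficient of variation in VC20 was 11.7%, against 50.5% for *Gb_29026* and 60.5% for *Gb_19428*.

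*Gb_19428* was uneven among young trees. Its levels were 27.1, 26.5 and 6.0 FPKM in VC20, then 4.01, 3.65 and 1.35 FPKM in VC200, and 6.37, 0.928 and 6.38 FPKM in VC600. VC20C, the young tree with the highest *Gb_29026* and *Gb_29027*, was the lowest of the young trees for *Gb_19428*, and VC600A and VC600C were slightly above it. The values in VC200C and VC600B rest on 9 and 6 fragments, so counting error is large there. The means were 19.9 ± 12.0, 3.003 ± 1.44 and 4.56 ± 3.14 FPKM (SD, n = 3), or 84.9% and 77.1% less than VC20.

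**Figure D1:**
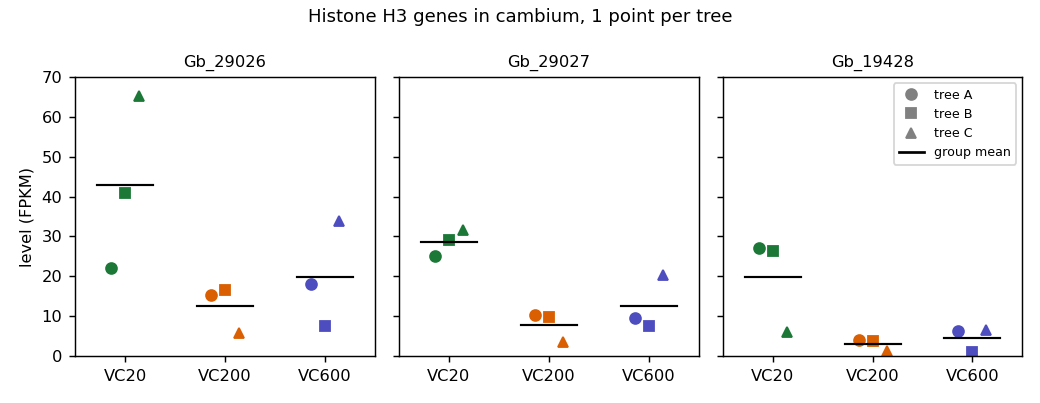
Level of each histone H3 gene in FPKM (vertical axis) by age group, with 1 point per tree and a line at the group mean. All 6 old trees are below the 3 young trees for Gb_29027, whereas VC600C overlaps VC20 for Gb_29026 and VC20C is at the level of the old trees for Gb_19428.

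The comparison of VC200 with VC20 asked whether transcripts of dividing cells differ in trees about 200 years old. The 3 genes had log2 differences of -2.21 for *Gb_19428* (SE 0.68, limma adjusted p = 0.135), -1.84 for *Gb_29027* (SE 0.42, adjusted p = 0.0698) and -1.69 for *Gb_29026* (SE 0.59, adjusted p = 0.173). None passed the threshold of an adjusted p under 0.05 with a difference of at least 1, which 0.707% of all tested genes passed in the lower direction. At an unadjusted p under 0.05 all 3 were lower, as were 15% of all genes, and every VC200 tree was below every VC20 tree for all 3, as for 21.1% of all genes. The differences lay low among all genes, where 0.789%, 1.32% and 1.63% had a lower value than *Gb_19428*, *Gb_29027* and *Gb_29026*. In bulk tissue, fewer dividing cells and less transcript per cell cannot be told apart.

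The call depended on the tool. DESeq2, the tool that the study's methods name, called 2 of the 3 when run on fragments recovered from FPKM, *Gb_29027* (log2 difference -1.75, adjusted p = 0.00483) and *Gb_19428* (-2.57, adjusted p = 0.0179), against 1.92% of all genes called lower. Array weights in limma called the same 2 genes, with adjusted p = 0.00778 and 0.0112, against 4.93% of all genes. The edgeR test on the same fragments called 0 of the 3, with 0.134% of all genes called lower, adjusted p of 0.105 to 0.187 and 3 of 3 at an unadjusted p under 0.05 against 9.97% of all genes. *Gb_29026* was called under no alternative. Without VC200C the limma differences were -1.86, -1.43 and -1.24 for *Gb_19428*, *Gb_29027* and *Gb_29026*, and without VC20C that of *Gb_19428* was -2.87.

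The comparison of VC600 with VC20 uses the same 3 young trees, so it is not independent of the one above. The log2 differences were -1.90 for *Gb_19428* (SE 0.68, limma adjusted p = 0.652), -1.25 for *Gb_29027* (SE 0.42, adjusted p = 0.604) and -1.17 for *Gb_29026* (SE 0.59, adjusted p = 0.769). None was called by limma, edgeR, DESeq2 or any other alternative, where 0.00456% of all genes were called lower by limma, 0.249% by DESeq2, 0.132% with array weights and 0% by edgeR. At an unadjusted p under 0.05, 2 of the 3 were lower, *Gb_19428* and *Gb_29027*, against 3.52% of all genes, and edgeR gave the same count against 3.37%. For *Gb_29027* alone were all VC600 trees below all VC20 trees, as for 8.82% of all genes. VC600B was the lowest VC600 tree for all 3 genes, and without it the differences shrank to -1.25, -0.98 and -0.64 for *Gb_19428*, *Gb_29027* and *Gb_29026*.

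Between the old groups the 3 genes could not be separated. The log2 differences of VC600 vs VC200 were 0.60 for *Gb_29027* (95% interval -0.35 to 1.54), 0.52 for *Gb_29026* (-0.83 to 1.87) and 0.31 for *Gb_19428* (-1.24 to 1.87), with limma adjusted p of 0.652, 0.786 and 0.895. The ranges of the old groups overlapped for all 3, whereas 11.1% of all genes were higher in every VC600 tree than in any VC200 tree. The intervals leave room for a more than 2-fold difference in the upward direction for each gene.

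**Figure D2:**
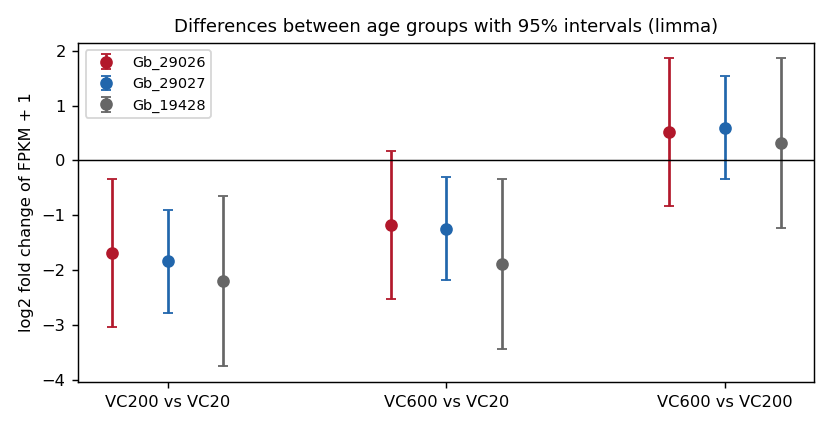
Log2 difference of FPKM + 1 for each histone H3 gene in the 3 comparisons, as limma estimates (points) with 95% intervals (bars). In VC200 vs VC20 the 3 estimates run from -2.21 to -1.69 with intervals below 0 before adjustment, and in VC600 vs VC200 all 3 intervals span 0.

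With the 6 old trees pooled against the 3 young trees, a comparison added after the values had been seen, *Gb_29027* had a log2 difference of -1.55 and the smallest p that an exact permutation test of 3 against 6 trees can give, 0.0238 (two-sided). For *Gb_29026* the difference was -1.43 (exact p = 0.0476) and for *Gb_19428* -2.05 (exact p = 0.0714), since VC20C was within the range of the old trees. Old trees did not overlap young trees in the lower direction for 5.39% of all tested genes. Adjusted over all genes, the limma p were 0.141, 0.262 and 0.193 for *Gb_29027*, *Gb_29026* and *Gb_19428*, and none was called, where 0.173% of all genes were called lower. Array weights called *Gb_29027* and *Gb_19428*, with 1.69% of all genes called lower.

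Within the neighbouring pair, *Gb_29026* had the higher level in 7 of 9 trees. The ratio of *Gb_29026* to *Gb_29027* was 0.886, 1.40 and 2.06 in the young trees, 1.51, 1.69 and 1.58 in VC200, and 1.90, 0.985 and 1.68 in VC600. In VC20A *Gb_29027* was the higher of the pair, and in VC600B the neighbours were nearly equal, with 73 fragments for *Gb_29026* and 74 for *Gb_29027*. The geometric mean ratio over the 9 trees was 1.47, or 0.56 ± 0.41 on the log2 scale (SD, n = 9; exact sign-flip permutation test, two-sided p = 0.0156). The VC200 trees were closest to each other, with an SD of 0.078 on the log2 scale against 0.61 in VC20 and 0.50 in VC600.

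The pair ratio did not separate the age groups. The mean log2 ratio in VC200 was 0.22 above that in VC20 (exact permutation test, p = 0.7), and that in VC600 0.098 above VC20 (exact p = 0.8). VC600 vs VC200 gave -0.12 (exact p = 0.9). With 3 against 3 trees these tests cannot go below 0.1, so they could pass no threshold. Ratios of either neighbour to *Gb_19428* gave exact p of 0.6 to 0.7, and all 9 ratio tests had an adjusted p of 0.9. *Gb_29026* was 0.818, 1.55 and 10.9 times *Gb_19428* in the VC20 trees, 3.84, 4.53 and 4.21 times in VC200 and 2.83, 8.09 and 5.32 times in VC600. The span among young trees, from below 1 to above 10, held all the values of the old trees.

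**Figure D3:**
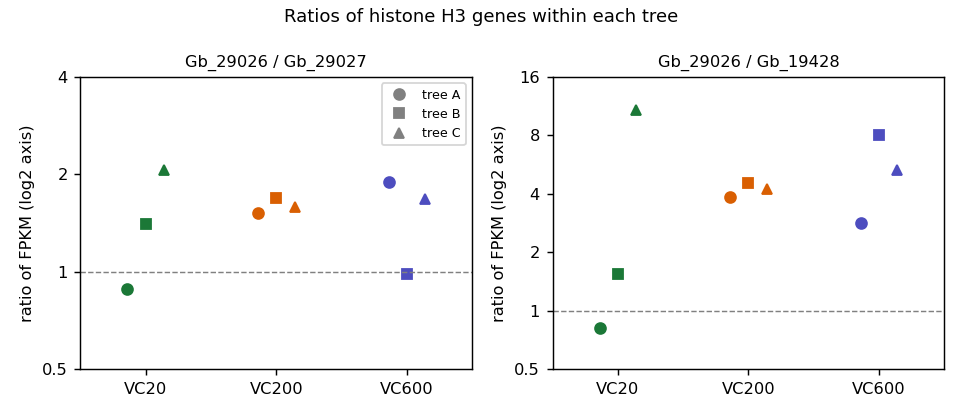
Ratio of Gb_29026 to its neighbour Gb_29027 (left) and to Gb_19428 (right) within each tree, on log2 axes, with a dashed line at 1. The left ratio exceeds 1 in 7 of 9 trees, and the 3 VC200 trees lie between 1.51 and 1.69.

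The neighbours varied together from tree to tree. Their Pearson correlation of log2(FPKM + 1) over the 9 trees was 0.930, and 0.883 after subtracting each group's mean. Of the 21,923 other tested genes, 47 were more like *Gb_29026* than *Gb_29027* was, and 177 were more like *Gb_29027* than *Gb_29026* was. *Gb_19428* was less like either, with 0.798 to *Gb_29027* and 0.673 to *Gb_29026*, or 0.462 and 0.300 within groups. These correlations describe 9 libraries that share age groups and depth, and fragments shared between copies could enter them.

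Summed over the 3 genes, histone H3 was 74.4, 96.7 and 103 FPKM in VC20, 29.6, 30.0 and 10.6 FPKM in VC200, and 33.9, 16.1 and 60.5 FPKM in VC600. No old tree reached the lowest young tree. Apart from gene lengths, the sum is independent of the split among these 3 copies only if each shared fragment was counted once, within them. Fragments that were dropped, counted in several copies or given to other entries would alter it, and their handling is not given. *Gb_19428* made up 36.5%, 27.4% and 5.82% of it in the young trees, 12.2% to 13.6% in VC200, and 18.8%, 5.78% and 10.5% in VC600.

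Other genes that handle or accompany H3 came from a list of 9 that the study annotates, all drawn from its own genes differing on these trees, so the list's direction is not independent evidence. In VC200 vs VC20, 7 of the 8 tested were lower and 1 was higher, with a median log2 difference of -1.54 against -0.12 over all genes. Of all 21,924 tested genes, 13,341 were lower. On the list 2 passed the test, both lower, as did 155 of all genes in that direction. Histone H3.3 *Gb_34665* fell from 21.3 ± 3.81 to 7.28 ± 0.833 FPKM (SD, n = 3; log2 difference -1.42, limma adjusted p = 0.0337). Histone H4 *Gb_10373*, the partner of H3 in the core, fell from 63.8 ± 18.1 to 20.5 ± 7.16 FPKM (-1.61, adjusted p = 0.0497). Neither call held in edgeR on fragments (adjusted p = 0.0609 and 0.0782), that of H4 was lost with any 1 library left out (0.0559 to 0.162), and that of H3.3 was lost without any of VC20A, VC20B, VC20C, VC200A or VC200B (0.0644 to 0.126). H2B genes *Gb_12096* and *Gb_32754* had differences of -1.90 and -1.53 (limma adjusted p = 0.0619 and 0.147), and a further H2B, *Gb_04634*, was too low to test. Without VC200C the median of the list was -1.29, with -1.37 for H3.3, -1.39 for H4, and -1.50 and -1.11 for the 2 tested H2B genes.

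The chaperones that carry H3 and H4 had differences of the same sign. ASF1A *Gb_19191* was 13.7 ± 1.23 FPKM in VC20 and 4.57 ± 1.63 in VC200 (log2 difference -1.44, limma adjusted p = 0.0537), and ASF1B *Gb_02216* was 4.18 ± 0.993 and 0.817 ± 0.515 FPKM (-1.54, adjusted p = 0.0558). SLBP *Gb_20984*, named for a protein that in animals binds the end of histone transcripts, had a difference of -1.62 (adjusted p = 0.0581). With quantile normalization these 3 narrowly passed the limma test, with adjusted p of 0.0495 to 0.0497, where 125 of all 21,924 tested genes were called lower. Of the list, DESeq2 on fragments called 8 of 9 tested and array weights 7 of 8. In edgeR, the fit of only the 2 groups and the replicate block 0 were called. Without VC200C the differences were -1.20, -1.28 and -1.31 for ASF1A, ASF1B and SLBP.

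Linker histone H1 *Gb_35270*, which binds DNA between cores, was the exception in the list. Its levels were 132, 120 and 88.5 FPKM in VC20, 288, 353 and 752 FPKM in VC200, and 943, 636 and 245 FPKM in VC600. All 6 old trees were above all young trees, for which no share over all genes is given here. The log2 differences were 1.91 in VC200 (limma adjusted p = 0.103) and 2.23 in VC600 (adjusted p = 0.333). At an unadjusted p under 0.05 H1 was higher in both, as were 1,126 and 715 of 21,924 tested genes. DESeq2 called it higher in both comparisons (adjusted p = 0.00242 and 0.00286) as did array weights in VC200 (adjusted p = 0.0192), while unweighted limma and edgeR did not. Over all genes DESeq2 called 528 and 90 of 30,910 higher, and array weights 563 of 21,924 in VC200. Without VC200C, its highest VC200 library, the difference was 1.50 (limma adjusted p = 0.145).

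In VC600 vs VC20 the histone list had a median log2 difference of -0.68 against -0.015 over all genes, and 0 of 8 were called by limma or edgeR. At an unadjusted p under 0.05 limma had 3 lower and 1 higher, against 771 lower and 715 higher of all 21,924 tested genes. Histone H3.3 averaged 19.0 ± 4.02 FPKM in VC600, and its difference from VC20 was -0.16 (95% interval -0.64 to 0.32, limma adjusted p = 0.923), where that of *Gb_29027* was -1.25. The ratio of *Gb_29027* to H3.3 was 1.02, 1.71 and 1.44 in the young trees, 1.48, 1.19 and 0.533 in VC200, and 0.437, 0.530 and 0.967 in VC600. Thus *Gb_29027* was above H3.3 in VC20B and VC20C and below it in VC600A and VC600B. In VC20A and VC600C the genes were nearly equal, within the counting error of *Gb_29027*. The log2 ratio differed by -1.09 in VC600 vs VC20, with an exact permutation p of 0.1, the smallest that 3 against 3 trees allow. For *Gb_29026* and *Gb_19428* the difference in log2 ratio to H3.3 was -1.01 (exact p = 0.2) and -1.73 (exact p = 0.3), and over the 9 such tests, added after the values had been seen, the lowest adjusted p was 0.386.

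**Figure D4:**
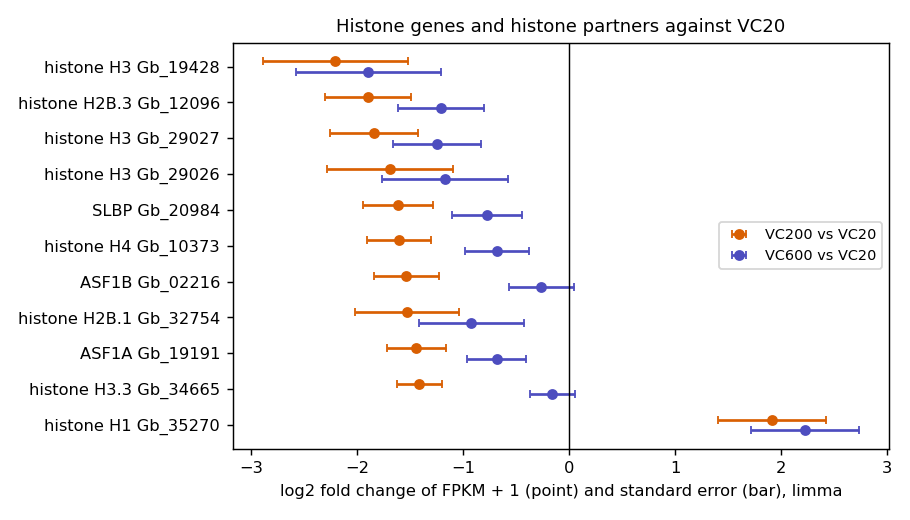
Log2 difference of FPKM + 1 against VC20 (horizontal axis, points, with limma standard errors as bars) for the 3 histone H3 genes and the 8 tested histone genes and histone partners, in VC200 and VC600. Linker histone H1 is the 1 gene above 0, and histone H3.3 lies at -1.42 in VC200 and -0.16 in VC600.

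Across the 9 trees, the 7 tested histone genes and partners other than H1 had Pearson correlations of 0.719 to 0.970 with *Gb_29027*, 0.633 to 0.939 with *Gb_29026* and 0.592 to 0.850 with *Gb_19428*. The highest was H2B *Gb_12096* with *Gb_29027*. H1 *Gb_35270* went the opposite way, with -0.901, -0.819 and -0.691 for *Gb_29027*, *Gb_29026* and *Gb_19428*. The medians over all tested genes were 0.224, 0.164 and 0.181 for *Gb_29027*, *Gb_29026* and *Gb_19428*. The members and the list were both drawn from the study's genes differing between these age groups. Correlations across the groups are therefore not independent evidence, and none within groups is given for the list.

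A second list held 17 replication and chromatin genes that the study annotates as predicted miRNA targets, which were not taken for their difference. Of these 15 were tested, and 6 were lower and 9 higher in VC200 vs VC20, with a median log2 difference of 0.060 and 0 called by limma, edgeR or DESeq2. The split rested on single libraries. It was 4 lower and 11 higher without VC200C (median 0.22), 11 and 4 without VC200B (-0.093), 10 and 5 without VC20C (-0.086), and 8 and 7 without VC200A (-0.049). At an unadjusted p under 0.05 limma had 2 lower and 1 higher, against 3,289 lower and 1,126 higher of all 21,924 tested genes. In VC600 vs VC20 the median was 0.00039 (-0.080 to 0.071 with 1 library left out), with 0 called by limma and 0 at an unadjusted p under 0.05. FAS1 is the large subunit of CAF-1, which deposits H3 at replication, and its copies differed, with -0.83 for *Gb_14629* (limma adjusted p = 0.226) and -0.16 for *Gb_13173* (adjusted p = 0.750) in VC200. TONSOKU *Gb_06807*, which in *Arabidopsis* recognises newly deposited H3, had 0.019 (adjusted p = 0.976). Cyclin A2-1 *Gb_21011* had the lowest value, -1.13 (adjusted p = 0.242), and ASHH2 *Gb_19296*, a methyltransferase of H3, the highest, 0.49 (adjusted p = 0.191). Origin recognition gene ORC2 *Gb_24223*, ribonucleotide reductase RIR1 *Gb_15263*, deacetylase HDA8 *Gb_18948* and arginine methyltransferase PRMT5 *Gb_23660* had differences of 0.26, 0.10, -0.087 and 0.060.

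The other 10 cell division genes that the study names, also chosen on these trees, had a median log2 difference of -1.30 in VC200 and -0.54 in VC600, with 2 and 0 called by limma. Of all 21,924 tested genes limma called 155 and 1 lower. In VC200 vs VC20 DESeq2 on fragments called 7 of the 10, array weights 6, and edgeR and the replicate block 0. Over all genes these called 1,123 of 30,910, 1,643 of 21,924, 55 of 22,407 and 58 of 21,924, in either direction. Without VC200C the median was -1.05 with 0 called, and 0 were also called without any other library except VC600C, where 1 was. The correlations of these 10 genes with *Gb_29026* over the trees ran from 0.252 for *EB1C* *Gb_11921* to 0.942. Among them *E2F8* *Gb_38482*, a cell cycle transcription factor, and *CDKB1* *Gb_38629*, a mitotic kinase, had the highest, 0.937 and 0.942. Their differences in VC200 vs VC20 were -1.13 (limma adjusted p = 0.164) and -1.20 (adjusted p = 0.151).

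Summed levels of marker genes for tissue and stress were set beside these values. For 16 marker genes of forming xylem the summed level was 160 to 324 FPKM in VC20, 50.3 to 87.9 in VC200 and 120 to 211 in VC600. In VC200 vs VC20, 11 of the 12 tested were lower with 1 called. Of all 21,924 tested genes, 13,341 were lower and 155 were called lower. Of the 16, 2 to 5 were at 0 in the VC200 libraries and at most 1 elsewhere. For 7 cambium genes the sums were 113 to 220, 27.6 to 161 and 97.2 to 200 FPKM, with 7 of 7 lower in VC200, 0 called by limma and 2 at an unadjusted p under 0.05. By that rule 3,289 of all 21,924 tested genes were lower. The cambium sums overlapped between all age groups, and in VC600 vs VC20 the median log2 difference was -0.071. At most 1 of the 7 was at 0 in any library, in VC200. The 2 genes of green tissue summed to 22.9 to 31.8, 38.4 to 48.2 and 31.7 to 58.2 FPKM, and 8 heat shock genes to 1816 to 2507, 3614 to 8991 and 2202 to 5351 FPKM, with 0 of these 10 genes called by limma in VC200 or VC600 vs VC20. At an unadjusted p under 0.05, 1 green and 5 heat shock genes were higher in VC200, as were 1,126 of all 21,924 tested genes. In VC600, 1 green gene was higher, as were 715 of all genes, and 1 heat shock gene was lower, as were 771. The highest heat shock sum was that of VC200C, while VC200A and VC200B had 3614 and 3989 FPKM. The part of tissue makeup or of stress transcripts in the H3 values was not tested.

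The 3 genes most like each member over the 9 trees, by Pearson correlation of log2(FPKM + 1), carried no name in the sources used here. They were *Gb_41478* (0.992), *Novel00125* (0.985) and *Gb_00938* (0.980) for *Gb_29027*, *Gb_03431* (0.979), *Gb_33995* (0.975) and *Gb_40618* (0.970) for *Gb_29026*, and *Gb_31874* (0.953), *Gb_11103* (0.942) and *Gb_33134* (0.939) for *Gb_19428*. *Gb_41478* averaged 103, 61.5 and 69.8 FPKM in VC20, VC200 and VC600. Correlations above 0.9 were found with 435 genes for *Gb_29027*, 167 for *Gb_29026* and 34 for *Gb_19428*.

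*Gb_19428* is the start of a row of 3 consecutive entries with models of the same size. *Gb_19429* (1,745,724 to 1,746,134) and *Gb_19430* (1,855,034 to 1,855,444) lie on the same strand of scaffold2998, and each has a length and a span of 411 bases, which 39 of all 43,911 entries share. The sources used here give neither of them a name, and their sequences were not analysed here. *Gb_19429* had 27.1, 19.1 and 21.2 FPKM in VC20, 10.9, 13.9 and 17.9 FPKM in VC200 and 13.7, 43.9 and 38.7 FPKM in VC600. It was above *Gb_19428* in all 6 old trees, while in young trees it was equal in VC20A, lower in VC20B and higher in VC20C. Its log2 differences were -0.64 in VC200 (limma adjusted p = 0.395) and 0.36 in VC600 (adjusted p = 0.905). VC600B, where *Gb_19428* was lowest, had the highest *Gb_19429*, and the Pearson correlation of the 2 genes over the trees was -0.048. *Gb_19430* averaged 2.01, 1.35 and 2.43 FPKM, with a correlation of 0.406 to *Gb_19428*. The log2 ratio of *Gb_19428* to *Gb_19429* differed by -1.91 between the 6 old and the 3 young trees, which did not pass an exact permutation test (two-sided p = 0.0714, smallest possible 0.0238, added after the values had been seen).

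**Figure D5:**
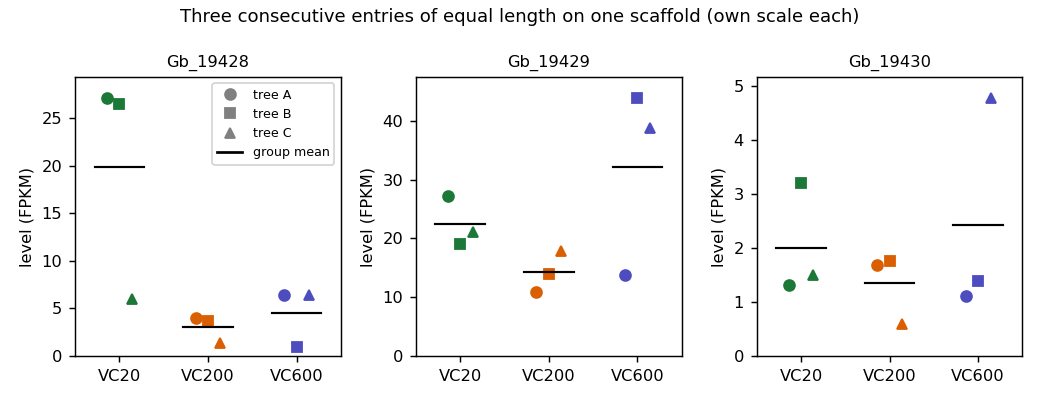
Level in FPKM of Gb_19428 and the next 2 entries on its strand, all of 411 bases, with 1 point per tree, a line at the group mean and a separate vertical scale in each panel. Gb_19429 is at 10.9 to 43.9 FPKM in old trees, where Gb_19428 is at 0.928 to 6.38.

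The nearest other entries were low or even across age. On scaffold5172 the entries beyond the pair were *Novel01487*, *Gb_29028* and *Gb_29025*, and *Gb_29028* averaged 1.90, 1.68 and 1.99 FPKM in VC20, VC200 and VC600. On scaffold2998 *Gb_19418* averaged 26.2, 26.4 and 29.8 FPKM, *Gb_19427* reached at most 0.379 FPKM, and *Gb_19426* and *Gb_19419* were listed at 0 in all 9. *Novel01487* had 0.932, 0.958 and 0.0480 FPKM in VC20 and at most 0.232 FPKM in old trees, too low to be tested. In the deposited predictions of miRNA targets, 0 of the 3 histone H3 genes were listed.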

How the data were processed

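RNA from cambium of 9 trees was sequenced, 1 library per tree. For alignment to the ginkgo genome, HISAT is named in the paper's methods, whereas TopHat2 2.0.12 and Cufflinks 2.1.1 are listed in the submitters' processing notes. The authors deposited FPKM values with gene positions and lengths. The counter and its handling of shared fragments are not given in the sources used here. The authors also deposited raw read counts of miRNA entries, not used here, and predicted miRNA targets, used only to look up the genes.

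On log2(FPKM + 1), so with a pseudocount of 1, limma 3.58.1 (R 4.3.3, eBayes with trend) was fitted to the 9 libraries together, for the 21,924 genes that reached 1 FPKM in 3 or more of them. Benjamini-Hochberg adjustment ran over these 21,924 genes. On this scale differences of low genes are understated. A gene was called at an adjusted p under 0.05 and a log2 difference of at least 1. Whole fragments could be recovered from FPKM and gene length, since 97.4% of nonzero values came out whole within 0.02, and those of 43,152 genes were tested with edgeR 4.0.16 and DESeq2 1.42.0. Ratios were compared by two-sided exact permutation tests over trees, with no pseudocount within the neighbouring pair and a pseudocount of 1 otherwise. Other steps ran in Python 3.11.15 (scipy 1.17.1, numpy 2.4.6, pandas 2.3.3, matplotlib 3.10.9). The fits were tested on simulated data.

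Alternatives were a pseudocount of 0.1, no filter, quantile normalization, only the 2 groups compared, edgeR and DESeq2 on fragments, array weights, a replicate block, no minimum difference and each library left out. The members, the lists and the alternatives were chosen with earlier results of these data known. Genes named are the members, the 9 histone, 17 replication and chromatin, and 10 division genes annotated by the study, the 3 genes most correlated with each member, and the 3 nearest entries on each side. H3.3 ratios, pooled old trees and *Gb_19429* ratios were added after values had been seen. P values judge a difference or a ratio against the spread between trees. No sequences were analysed here.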

Additional observations from a re-analysis of the deposited data

How the results depend on the processing

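The direction of the 3 histone H3 genes in VC200 vs VC20 and VC600 vs VC20 was the same under every alternative run. In VC200 vs VC20 none of the 3 was called in unweighted limma, with or without a minimum difference. By DESeq2 on fragments 2 were called, *Gb_19428* (-2.57) and *Gb_29027* (-1.75), and 2 in limma with array weights, *Gb_19428* (-2.30) and *Gb_29027* (-1.37). Array weights also called these genes in the pooled old trees, at -2.44 and -1.30, and turned VC600 vs VC200 to -0.28 for *Gb_19428* and -0.034 for *Gb_29026*. The cause was not tested. Leaving out 1 library gave a log2 difference in VC200 vs VC20 of -2.87 to -1.86 for *Gb_19428*, -2.09 to -1.24 for *Gb_29026* and -2.07 to -1.43 for *Gb_29027*, with 0 called in each case (limma adjusted p from 0.0594 to 0.388). In VC600 vs VC20 the ranges were -2.56 to -1.25, -1.66 to -0.64 and -1.63 to -0.98, and in VC600 vs VC200 -0.034 to 0.96, 0.033 to 1.05 and 0.18 to 0.86. The pair ratio ranged from -0.096 to 0.51 in VC200 vs VC20, -0.22 to 0.39 in VC600 vs VC20 and -0.31 to 0.17 in VC600 vs VC200. The ratio of *Gb_29026* to *Gb_19428* ranged from -0.22 to 1.54 and -0.011 to 1.75 against VC20, and that of *Gb_29027* from -0.066 to 1.10 in VC200 vs VC20 and -0.098 to 0.73 in VC600 vs VC200. The level of *Gb_29026* against *Gb_29027* stayed at 0.50 to 0.65 (exact permutation p of 0.0156 to 0.0312). Histone H3.3 in VC600 vs VC20 ranged from -0.30 to 0.017 and was above 0 without VC600B.

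Of the 9 histone genes and partners, limma called 2 in VC200 vs VC20, DESeq2 8 of 9 tested, array weights 7 and quantile normalization 4. No filter and a pseudocount of 0.1 called 1 each, and edgeR, the fit of only the 2 groups and the replicate block 0. Over all genes, limma called 217 of 21,924, DESeq2 1,123 of 30,910, array weights 1,643 and quantile normalization 212, in either direction. The list was drawn from the study's own differing genes. Letters pair no trees. After each group's mean was subtracted, libraries of different groups with the same letter correlated at -0.24 to 0.28. Those with different letters correlated at -0.30 to 0.27. With a replicate block the limma differences in VC200 vs VC20 were unaltered and the adjusted p were 0.174, 0.239 and 0.139 for *Gb_19428*, *Gb_29026* and *Gb_29027*, so no call of these 3 genes moved. Depth limited *Gb_19428* most, with 6 to 46 fragments in the old trees.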
